A study of Homo sapiens with 12 samples.

Results

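The 75 genes described here changed in the same direction in the venetoclax-resistant derivatives of 2 human diffuse large B-cell lymphoma (DLBCL) lines, SUDHL6 and SUDHL16. They are autosomal protein-coding genes, chosen on the measured values. A gene was taken when its mean was at least 5 CPM (counts scaled by the library total) in each line, when the resistant mean was at least 1.5 times the parental mean in both lines or the parental mean at least 1.5 times the resistant mean in both, and when no resistant library overlapped a parental library in either line. Of 18690 autosomal protein-coding genes, 8529 reached that mean in both lines and are called eligible below, and 75 of these met the rest of the rule. In both resistant lines, 48 genes were raised and 27 were lowered. Because the values chose the genes, every contrast of resistant with parental cells for these 75 genes is a description and not a test.

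RNA was sequenced from SUDHL6 and SUDHL16 cells, bought from ATCC, and from a resistant line made from each by stepping up the venetoclax (ABT-199) dose, with growth at 10 times the parental IC50 or above as the mark of resistance. Each of the 4 groups had 3 libraries, and the resistant lines were kept in venetoclax between experiments. For SUDHL6 the kit was NEBNext Ultra II and the instrument a HiSeq 4000, while for SUDHL16 the kit was Illumina Stranded Total RNA Prep (RiboZero Plus) and the instrument a NovaSeq 6000. Kit and instrument cannot be told apart from the line, so resistant cells were compared only with the parent they came from. Where CPM of both lines are printed together, they serve to show the change in each, and a difference in level between the lines may come from kit or instrument. There was 1 resistant derivative of each line, and the labels do not say whether the 3 libraries of a group came from separate cultures, so the spread within a group may be technical.

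Venetoclax occupies the groove of BCL2 that binds BH3 domains, and frees the pro-apoptotic proteins that BCL2 holds, which then open the outer mitochondrial membrane. Cells that survive the drug are known to rely on other survival proteins of the family, on weaker pro-apoptotic signalling, or on altered metabolism and signalling. Genes that move alike in separately derived lines are of interest because genes that changed in a single line only are left aside. Whether a gene changed for the same reason in both lines was not tested.

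The library totals ran from 33992784 to 40885665 counts in SUDHL6 and from 14335460 to 22068221 in 5 of the 6 SUDHL16 libraries. Parental SUDHL16 replicate 2 stood apart and was left out of the choice of genes. It held 4131927 counts, the lowest total, on 34938 genes, the highest number of genes with a count, and 55.4% of its counts fell on protein-coding genes, where the other 5 libraries of the line had 84.3% to 90.2%. Parental SUDHL16 is therefore described by replicates 1 and 3, with replicate 2 given separately. Values below are in CPM and in the order of the replicates.

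The B-cell label was checked against B-cell markers, of which MS4A1, CD79A, PAX5, VPREB3 and BLK are given here. MS4A1 was at 1818 to 2165 CPM in the SUDHL6 libraries, 645 to 915 CPM in 5 SUDHL16 libraries and 426 CPM in parental SUDHL16 replicate 2. CD79A was at 678 to 758, 709 to 987 and 316 CPM in the same order, and PAX5 at 308 to 321, 889 to 1130 and 202 CPM. Some markers differed between parental and resistant libraries. VPREB3 read 58.4, 57.6 and 56.0 CPM in parental and 34.4, 37.0 and 35.4 CPM in resistant SUDHL6, and 32.6 and 36.0 CPM in parental and 119, 74.2 and 134 CPM in resistant SUDHL16. BLK read 96.1, 94.7 and 95.4 CPM in parental and 82.2, 80.8 and 82.4 CPM in resistant SUDHL6. In SUDHL16 it read 32.5 and 43.6 CPM in parental and 135, 93.6 and 178 CPM in resistant libraries. In SUDHL6 the summed markers of T and NK cells, myeloid cells, fibroblasts and epithelial cells, and erythroid cells and platelets were each at most 3.78 CPM. In SUDHL16 the 13 fibroblast and epithelial markers summed to 42.4 and 37.4 CPM in parental replicates 1 and 3, led by DCN, and to 1.74, 1.34 and 2.22 CPM in the resistant libraries. The 12 myeloid markers summed to 3.54 and 3.05 CPM in those parental libraries and to 30.4, 23.3 and 16.5 CPM in the resistant ones, nearly all of it AIF1. The 13 T and NK markers summed to 4.02 and 4.11 CPM in parental and 13.7, 14.8 and 13 CPM in resistant SUDHL16, where CD3E gave most of the sum. The 8 erythroid and platelet markers, led by HBA2, summed to 271 and 161 CPM in parental and 141, 5.92 and 9.02 CPM in resistant SUDHL16. In parental SUDHL16 replicate 2 these 4 lists summed to 65.3, 28.6, 25.4 and 969 CPM, each above the parental replicates 1 and 3. In the resistant SUDHL16 libraries 10 or 11 of the fibroblast and epithelial markers, 9 of the myeloid markers and 9 to 12 of the T and NK markers were at 3 counts or fewer. None of these marker genes is among the 75, and their part in the results was not tested.

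By the same rule in 1 line alone, 149 genes were raised (1.75% of 8529) and 187 lowered (2.19%) in resistant SUDHL6, and 1136 were raised (13.3%) and 830 lowered (9.73%) in resistant SUDHL16. The 48 shared raised genes were 32.2% of the SUDHL6 list and 4.23% of the SUDHL16 list, and the 27 shared lowered genes were 14.4% and 3.25%. Genes that moved in opposite directions were 23 raised in SUDHL6 and lowered in SUDHL16 (15.4% of the genes raised in SUDHL6), and 55 lowered in SUDHL6 and raised in SUDHL16 (29.4% of those lowered there). In edgeR, where a call needed 1.5-fold or more and an adjusted p below 0.05, 718 genes (4.31% of 16662 tested) were called raised and 775 (4.65%) lowered in SUDHL6, and 1095 (6.73% of 16280 tested) raised and 541 (3.32%) lowered in SUDHL16. All 75 genes passed edgeR's filter on low counts in both lines, and all 75 were called in SUDHL6. In SUDHL16, 31 of the 48 raised and 18 of the 27 lowered genes were called, so 17 and 9 met the rule without an edgeR call there. The uncalled raised genes were MGLL, CAMP, CTTN, PSMB8, PSMB9, TRANK1, EIF2AK2, SCCPDH, CYB5D1, IFI27L2, SMIM14, IQCG, GLRX, PRDM10, RIPOR2, BTN3A2 and LIX1L, and the lowered ones ABCA1, H1-10, RASSF6, GPR137C, ACVR2B, ICOSLG, RPRD1A, FKBP4 and STARD9. The same contrasts chose the genes, so nothing is read from these shares. The mean of 5 CPM was reached although the parental mean lay under 5 CPM for 14 raised genes in SUDHL6 and 20 in SUDHL16, and the resistant mean for 3 and 7 lowered genes. Those genes could enter the set only because they differed.

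The ratios were mostly modest in SUDHL6 and wider in SUDHL16. Raised genes had a median ratio of 1.69 in SUDHL6 and 3.03 in SUDHL16, and lowered genes a median parental to resistant ratio of 1.89 and 2.61. The ratio was larger in SUDHL16 for 39 of the 48 raised and 20 of the 27 lowered genes. It reached at least 2 in both lines for 13 raised and 8 lowered genes. Genes had to stay apart in all libraries, so the direction in each single library follows from the choice. The genes lie on all 22 autosomes, and 22 of the 75 belong to 13 of the 31 gene lists that were examined beside the cell markers. A lower level in a bulk library can come from fewer cells or from less RNA per cell, and these cannot be told apart here.

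**Figure D1:**
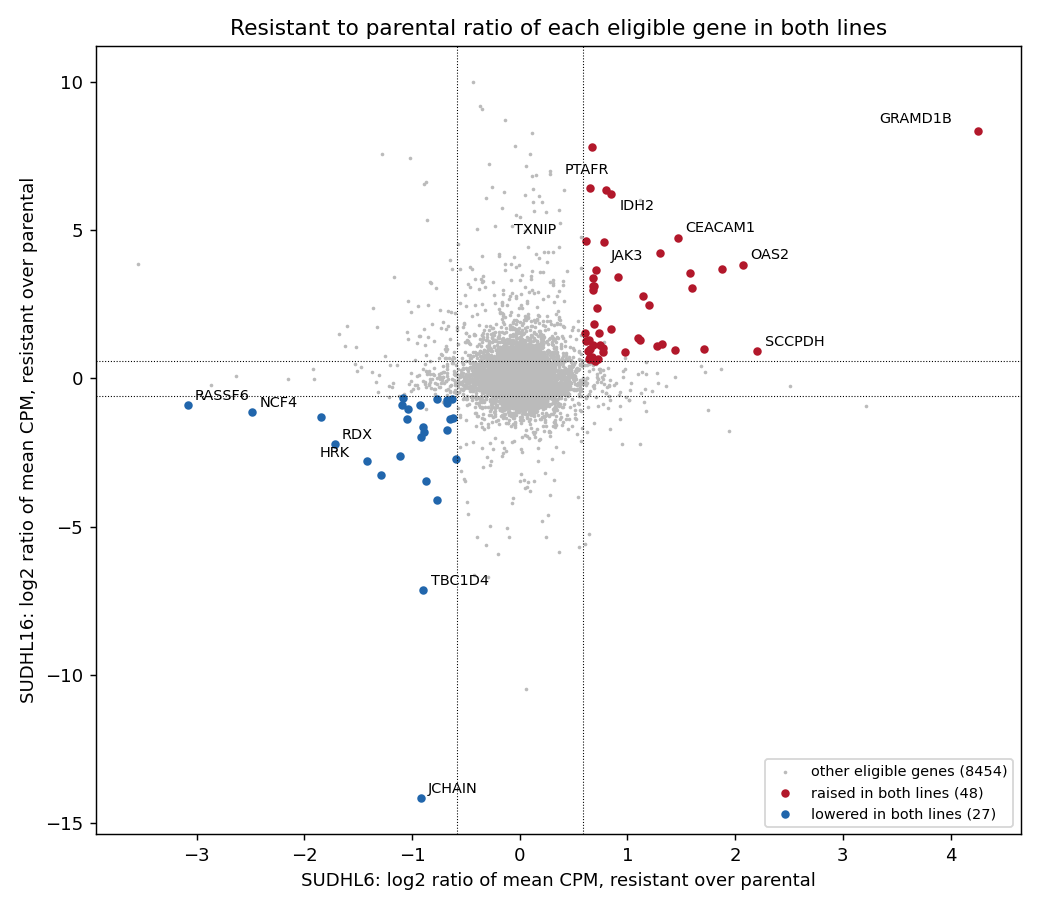
Each point is 1 of the 8529 eligible genes, with the log2 ratio of resistant to parental mean CPM in SUDHL6 on the horizontal axis and in SUDHL16 on the vertical axis. The 48 raised genes lie in the upper right and the 27 lowered genes in the lower left, by the rule that chose them.

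**Figure D2:**
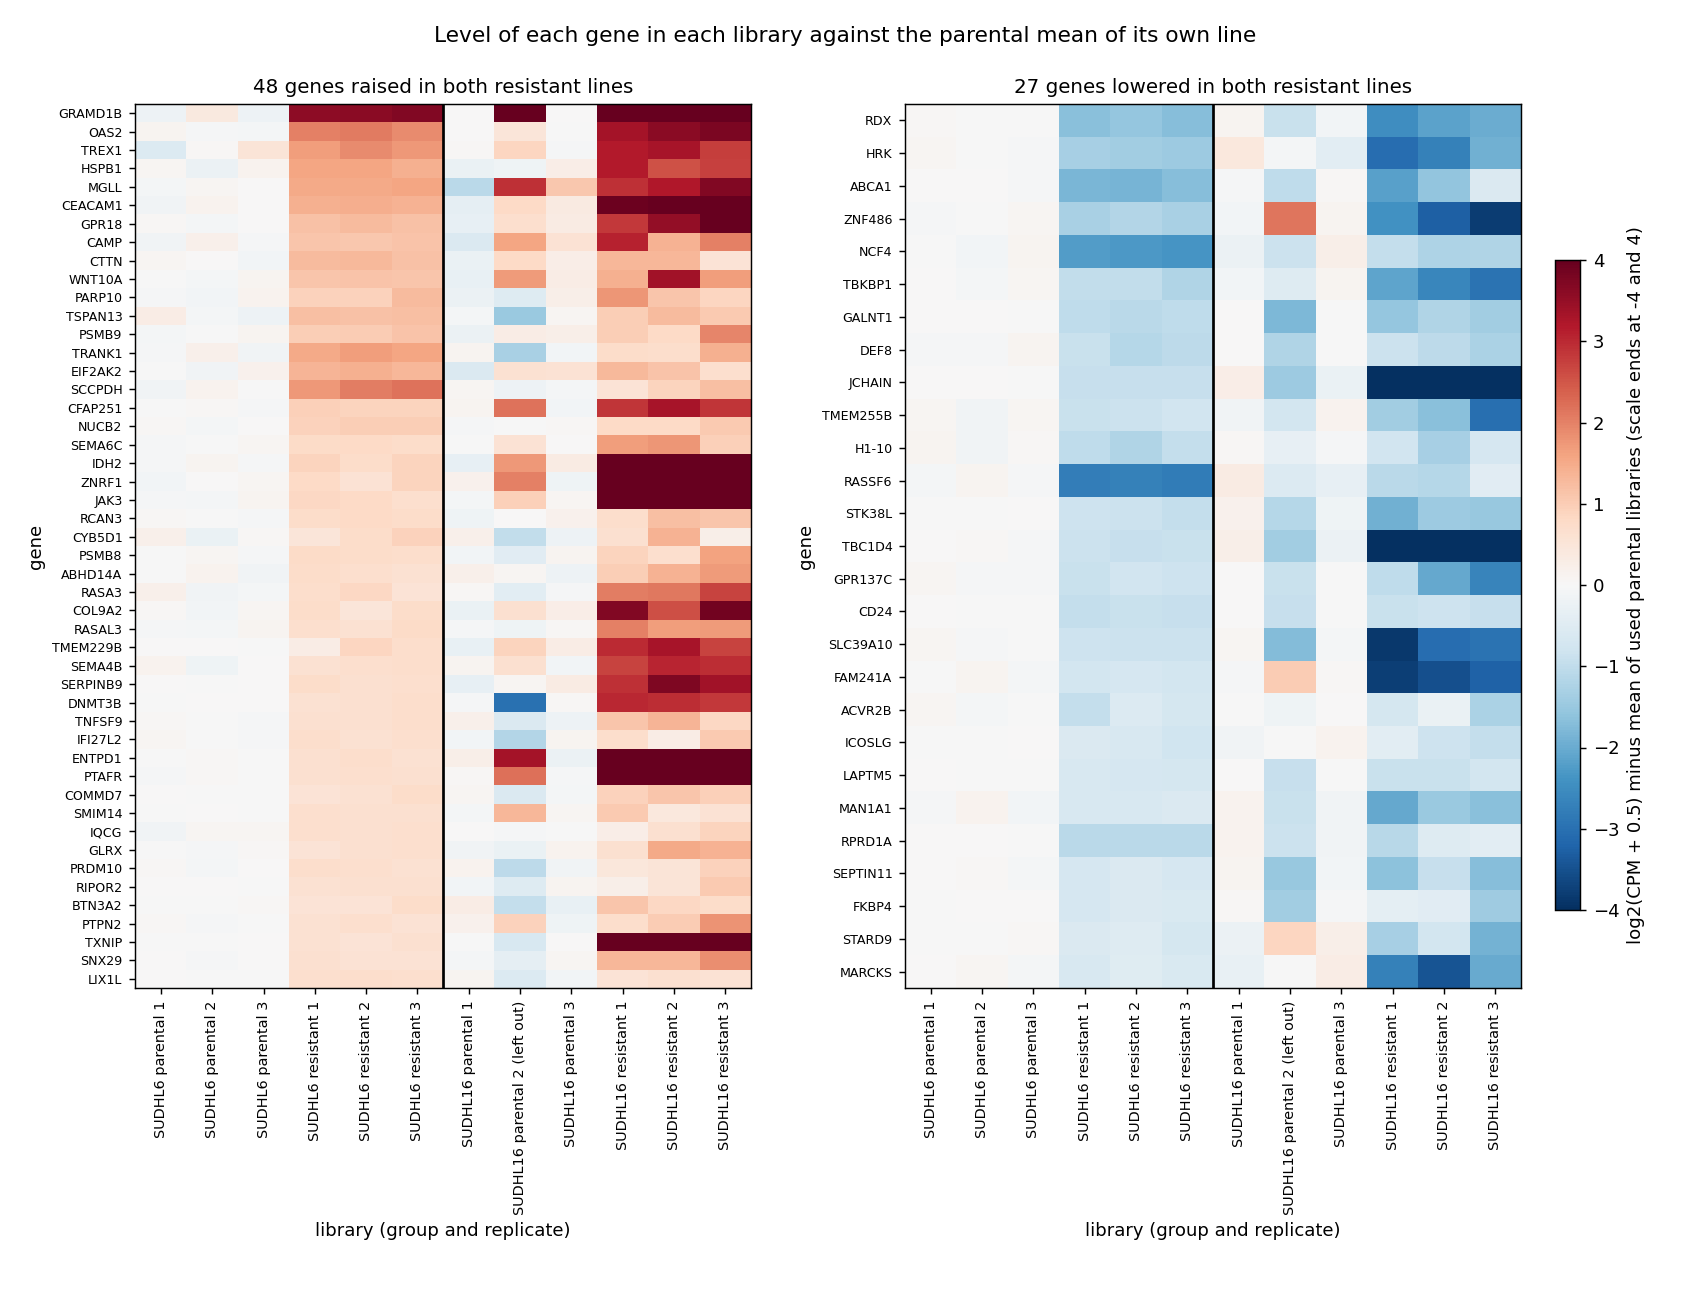
Colour gives the log2 of CPM plus 0.5 for each of the 75 genes in each of the 12 libraries, relative to the parental mean of its line and drawn up to 4 either way, with raised genes in the left panel and lowered genes in the right. Parental SUDHL16 replicate 2 did not take part in the choice. It lay on the parental side for 42 raised (87.5%) and 18 lowered genes (66.7%). Among genes that met the rule in SUDHL16 alone these shares were 93.0% and 39.4%, and among all 8529 eligible genes 73.8% and 10.5%.

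Among the raised genes, the interferon response list had the most members of the 31 lists examined. The lists held from 13 to 76 genes and were written with earlier results of these data known, so nothing is read from this rank. Cells that sense foreign nucleic acid make interferon, and its receptors act through JAK kinases and STAT factors to raise enzymes that bind viral RNA, modify proteins or cut them for display on HLA molecules. Of 74 genes on the list 32 were eligible. OAS2, PARP10, EIF2AK2, PSMB8, PSMB9 and TXNIP met the rule as raised in both resistant lines, while 0 were lowered in both. Of all 8529 eligible genes 48 were raised and 27 lowered in both. In SUDHL16 edgeR made no call for 3 of the 6, with an adjusted p of 0.146 for EIF2AK2, 0.0593 for PSMB8 and 0.0698 for PSMB9. Without these 6 genes, edgeR called 8 of 45 list genes raised and 1 lowered in resistant SUDHL6, with a median log2 change of 0.31. In SUDHL16 it called 29 of 61 raised and 0 lowered, with a median of 1.37, and the median of all genes tested was 0.00 in SUDHL6 and 0.05 in SUDHL16. Of all genes tested edgeR called 4.31% raised and 4.65% lowered in SUDHL6, and 6.73% and 3.32% in SUDHL16, and the list counts that follow are to be read beside these shares. The SUDHL16 list counts come from the fit without parental replicate 2, which made 1636 calls over all genes. With that replicate kept edgeR made 833, so these list counts depend on the choice of libraries.

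OAS2 (ENSG00000111335, chr12:112978395-113011723), an enzyme that makes the activator of RNase L when it meets double-stranded RNA, read 6.17, 5.53 and 5.38 CPM in parental and 24.3, 25.4 and 22.2 CPM in resistant SUDHL6, and 2.46 and 2.45 CPM in parental and 29.4, 35.5 and 39.4 CPM in resistant SUDHL16. The resistant libraries were 4.21-fold higher in SUDHL6 and 14.2-fold higher in SUDHL16, and the lowest resistant library was far above the highest parental library in both. EIF2AK2 (ENSG00000055332, chr2:37099210-37157522) encodes PKR, the kinase that halts translation on double-stranded RNA, and went from 6.06, 5.56 and 6.97 CPM to 16.7, 17.4 and 16.4 CPM in SUDHL6 and from 78.1 and 176 CPM to 291, 262 and 189 CPM in SUDHL16. Its mean rose 2.72-fold in SUDHL6 with wide gaps, but in SUDHL16 the resistant replicate 3 stood only a little above the parental replicate 3. The parental SUDHL16 replicate 2 read 179.8 CPM, also below the lowest resistant library. With 1 library left out the log2 ratio in SUDHL16, 0.96 in the main analysis, ran from 0.489, which is under the 1.5-fold of the rule, to 1.66. PARP10, a mono-ADP-ribosyltransferase, went from 4.51, 4.27 and 5.14 CPM to 9.11, 9.23 and 11.9 CPM in SUDHL6 and from 27 and 37.3 CPM to 108, 69.5 and 57.9 CPM in SUDHL16. TREX1, the exonuclease that clears DNA from the cytosol and is not on the list, read 1.64, 2.74 and 3.96 CPM against 9.43, 11.2 and 9.97 CPM in SUDHL6, and 0.899 and 0.795 CPM against 11.6, 12.6 and 8.70 CPM in SUDHL16. TREX1 was thus at or under 3.96 CPM in every one of these parental libraries and between 8.70 and 12.6 CPM in the resistant ones. It overlaps ATRIP on the same strand, so the split of reads between these genes is uncertain.

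PSMB8 and PSMB9, the catalytic subunits that replace their constitutive counterparts in the immunoproteasome, lie next to each other on chromosome 6. PSMB9 read 6.91, 7.33 and 7.90 CPM against 15.2, 15.3 and 16.8 CPM in SUDHL6, and 9.53 and 13.5 CPM against 22.7, 20.1 and 45.4 CPM in SUDHL16, and PSMB8 read 17.2, 18.4 and 17 CPM against 29.9, 29.5 and 29 CPM in SUDHL6, and 15.9 and 18.7 CPM against 32.6, 28 and 54.2 CPM in SUDHL16. The PSMB9 and PSMB8 ratios were 2.14 and 1.68 in SUDHL6 and 2.55 and 2.21 in SUDHL16, and for both genes the resistant SUDHL16 replicate 3 was the highest library. The genes overlap each other and PSMB8-AS1, and PSMB9 overlaps TAP1, so their counts are uncertain where strand was not used. TAP1, which carries peptides to HLA class I, was not a member, with means of 20.2 and 25.9 CPM in parental and resistant SUDHL6 and 20.4 and 84.8 CPM in SUDHL16. Of the 26 eligible genes of the HLA and antigen presentation list, PSMB8 and PSMB9 were the 2 members. Of the other genes of that list, edgeR called 1 of 27 raised and 1 lowered in SUDHL6, with a median log2 change of −0.05, and 11 of 27 raised and 1 lowered in SUDHL16, with a median of 1.26.

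TXNIP, which binds thioredoxin and restrains glucose uptake, read 23.5, 23.4 and 24 CPM in parental and 36.6, 34.8 and 37.1 CPM in resistant SUDHL6, and 9.95 and 10.1 CPM in parental and 178, 182 and 387 CPM in resistant SUDHL16. Its resistant to parental ratio was 1.53 in SUDHL6 and 24.8 in SUDHL16, and resistant SUDHL16 replicate 3 was the highest library by far. Another gene of the list, UBE2L6, the E2 enzyme of ISG15 conjugation, fell just short of the rule at ratios of 1.65 and 1.49. BTN3A2, a butyrophilin, read 10.1, 10.00 and 10.5 CPM against 15.1, 15.2 and 17.4 CPM in SUDHL6, and 9.17 and 6.03 CPM against 16.7, 13.6 and 12.6 CPM in SUDHL16, and IFI27L2, a homologue of the interferon-induced IFI27, read 19.6, 18.6 and 18 CPM against 30.5, 28.9 and 30.1 CPM in SUDHL6, and 13.7 and 15.7 CPM against 24.2, 18.3 and 30.8 CPM in SUDHL16. Neither gene is on the list, both had ratios under 2 in both lines, and in neither did edgeR make a call in SUDHL16.

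**Figure D3:**
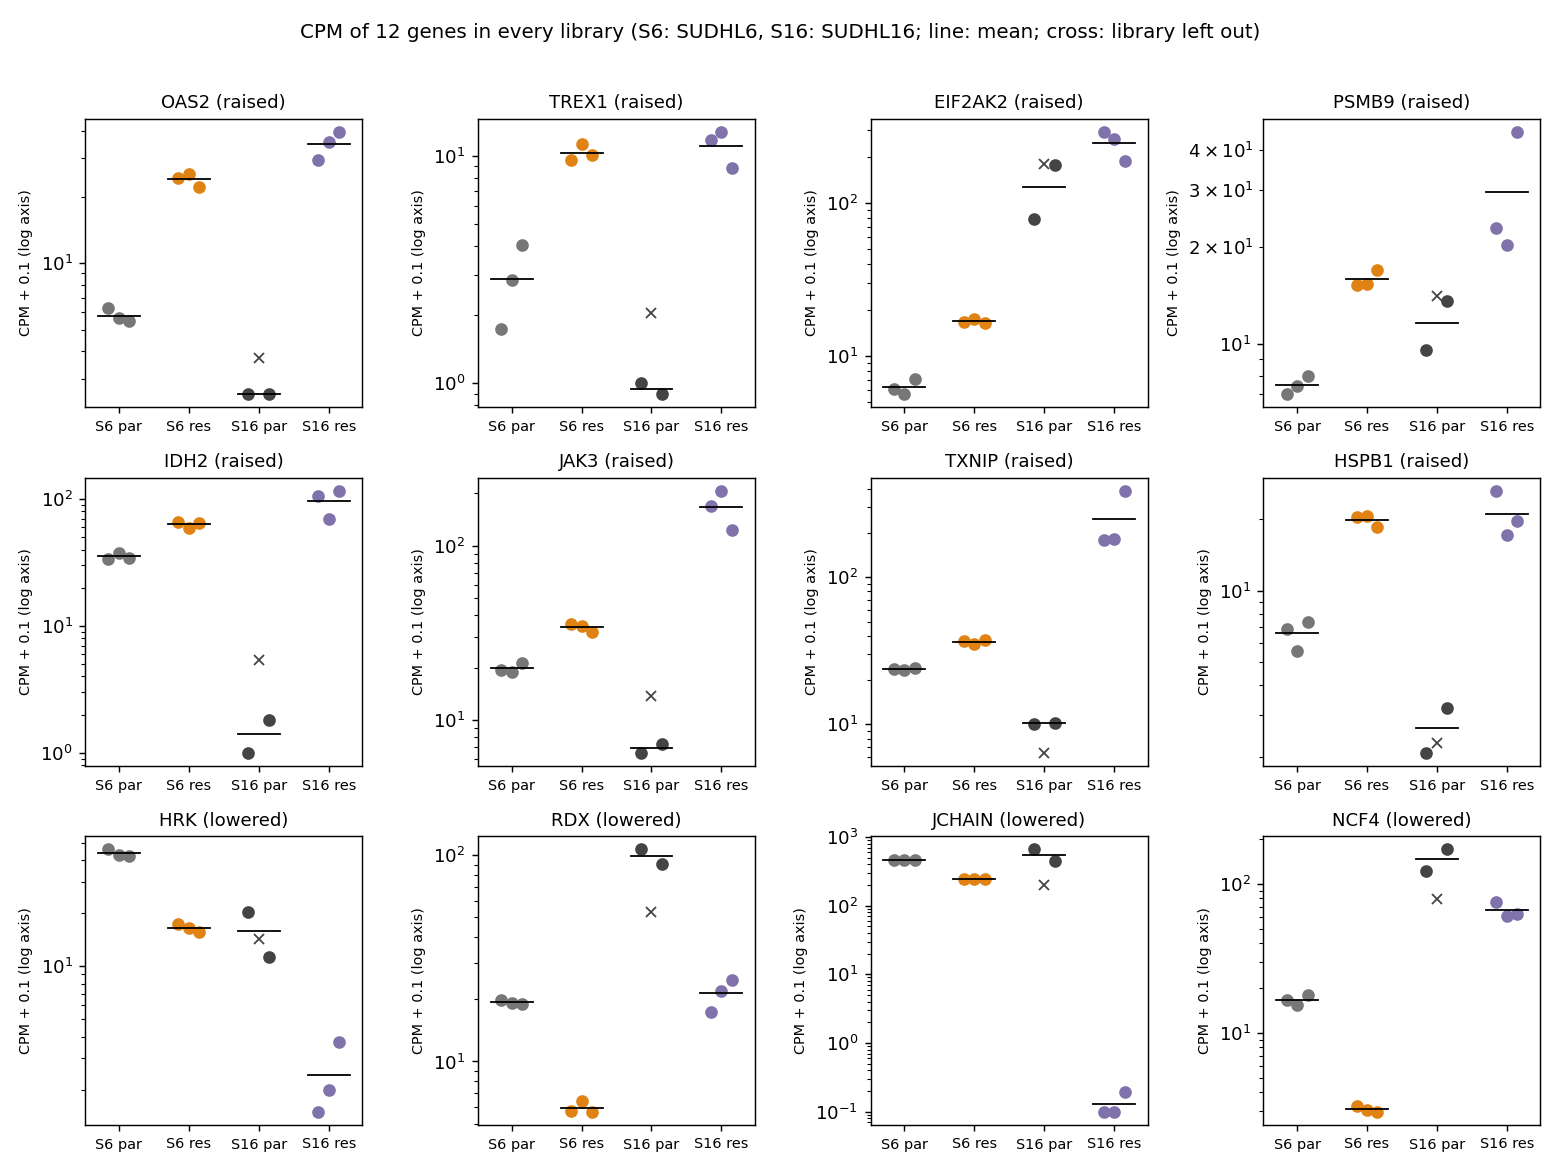
CPM of 12 members in each library on a logarithmic axis after a small offset, with a line at the mean of each group and a cross for parental SUDHL16 replicate 2, which the mean leaves out. OAS2, for example, lies between 5.38 and 6.17 CPM in parental SUDHL6 and between 22.2 and 25.4 CPM in resistant SUDHL6.

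Promoter sequences were searched because these genes moved together. RefSeq, on build GRCh38.p14, gave 250 bases before to 50 bases after the start of 41 raised and 22 lowered genes and of 7128 eligible genes. The letters GAAANNGAA, the core of an interferon-stimulated response element, were found on either strand in 5 of 41 raised promoters (12.2%), 0 of 22 lowered promoters and 6.33% of the 7128. The 5 promoters are shown whole, with the matching letters in capitals on the strand of the gene, so that a match on the other strand appears as its reverse complement. They are those of EIF2AK2 (chr2:37156931-37157230, minus strand), CEACAM1 (chr19:42528432-42528731, minus strand), GPR18 (chr13:99258330-99258629, minus strand, with 2 matches), TNFSF9 (chr19:6530776-6531075, plus strand) and RIPOR2 (chr6:24935911-24936210, minus strand).
EIF2AK2: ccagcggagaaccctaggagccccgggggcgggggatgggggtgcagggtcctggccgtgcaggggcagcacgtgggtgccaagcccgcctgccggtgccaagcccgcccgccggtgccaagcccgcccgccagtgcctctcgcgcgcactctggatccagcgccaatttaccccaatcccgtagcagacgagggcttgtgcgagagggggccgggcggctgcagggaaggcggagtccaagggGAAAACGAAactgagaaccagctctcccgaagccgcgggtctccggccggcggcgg
CEACAM1: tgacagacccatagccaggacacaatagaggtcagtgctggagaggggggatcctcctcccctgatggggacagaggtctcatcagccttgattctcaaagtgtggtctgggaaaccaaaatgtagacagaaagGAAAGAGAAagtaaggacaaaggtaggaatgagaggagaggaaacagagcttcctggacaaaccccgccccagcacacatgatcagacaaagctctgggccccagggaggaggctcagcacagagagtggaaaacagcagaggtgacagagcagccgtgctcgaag
GPR18: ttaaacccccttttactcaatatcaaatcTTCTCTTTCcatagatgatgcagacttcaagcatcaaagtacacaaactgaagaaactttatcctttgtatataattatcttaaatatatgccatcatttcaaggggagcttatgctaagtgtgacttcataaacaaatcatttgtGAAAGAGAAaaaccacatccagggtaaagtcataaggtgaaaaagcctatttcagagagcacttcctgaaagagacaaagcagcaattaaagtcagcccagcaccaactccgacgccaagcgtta
TNFSF9: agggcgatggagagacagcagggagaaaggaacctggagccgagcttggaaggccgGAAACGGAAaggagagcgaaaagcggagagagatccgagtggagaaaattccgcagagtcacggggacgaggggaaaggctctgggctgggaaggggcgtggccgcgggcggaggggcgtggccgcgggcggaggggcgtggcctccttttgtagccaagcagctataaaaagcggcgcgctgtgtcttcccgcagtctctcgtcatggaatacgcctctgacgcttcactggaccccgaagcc
RIPOR2: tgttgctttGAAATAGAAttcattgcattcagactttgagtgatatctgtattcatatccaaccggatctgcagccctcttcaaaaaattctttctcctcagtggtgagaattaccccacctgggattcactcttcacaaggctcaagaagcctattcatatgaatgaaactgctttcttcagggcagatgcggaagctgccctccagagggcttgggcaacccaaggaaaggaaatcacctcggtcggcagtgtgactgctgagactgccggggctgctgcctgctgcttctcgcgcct
In EIF2AK2 the match begins at base −6 from the start, and in the other 4 genes between bases −241 and −75. Of the raised genes on the interferon response list only EIF2AK2 had these letters. PSMB8, PSMB9 and TXNIP did not, and OAS2 and PARP10 could not be searched. CEACAM1, GPR18, TNFSF9 and RIPOR2 are not on that list. No entry was found for GRAMD1B, OAS2, MGLL, CTTN, PARP10, CYB5D1, IQCG, NCF4, DEF8, TBC1D4, GPR137C and FKBP4. A match describes letters and not a bound site.

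The letters GGNNTTTCC, a core of kappaB sites, were found on either strand in 6 of 41 raised promoters (14.6%), 0 of 22 lowered promoters and 6.93% of the 7128. The 6 genes were WNT10A, SCCPDH, JAK3, TMEM229B, PTAFR and PTPN2. The promoters of JAK3 (chr19:17847933-17848232, minus strand) and PTAFR (chr1:28193807-28194106, minus strand) are shown because both genes are among the signalling genes with wide ratios in SUDHL16, with the match in capitals.
JAK3: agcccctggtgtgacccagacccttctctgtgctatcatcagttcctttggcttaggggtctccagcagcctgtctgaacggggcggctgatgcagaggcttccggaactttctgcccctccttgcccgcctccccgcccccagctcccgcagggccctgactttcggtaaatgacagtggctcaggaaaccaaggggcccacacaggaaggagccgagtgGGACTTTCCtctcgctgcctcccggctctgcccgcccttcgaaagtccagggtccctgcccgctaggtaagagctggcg
PTAFR: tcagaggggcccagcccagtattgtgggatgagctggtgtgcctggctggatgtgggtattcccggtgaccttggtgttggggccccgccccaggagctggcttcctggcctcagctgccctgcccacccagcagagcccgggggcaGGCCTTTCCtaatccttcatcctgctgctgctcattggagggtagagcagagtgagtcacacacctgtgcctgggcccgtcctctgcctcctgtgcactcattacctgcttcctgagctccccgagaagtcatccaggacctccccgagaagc
The gamma-activated sequence TTCNNNGAA was found in 1 of 41 raised promoters, that of LIX1L, in 1 of 22 lowered promoters, that of SLC39A10, and in 6.31% of the 7128. Of motifs that do not belong to interferon or kappaB, the CCAAT box (CCAAT) was in 39.0% of raised, 27.3% of lowered and 38.7% of the 7128 promoters. The GC box (GGGCGG) was in 65.9%, 81.8% and 72.2%, and the E-box (CACGTG) in 9.76%, 9.09% and 11.1%. The TATA box (TATAAA) was in 3 raised and 2 lowered promoters and 4.67% of the 7128, and E2F letters (TTTNNCGC) were in 1 raised and 2 lowered promoters and 11.9% of the 7128. A 9-base NRF1 motif (GCGCATGCG) was in 0 raised and 0 lowered promoters and 4.60% of the 7128. Median GC content was 63.3% for raised, 66.8% for lowered and 65.3% for the 7128 promoters.

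Signalling genes, surface receptors and ligands made up 14 of the raised genes, grouped by their known roles once the members were found. Their ratios ran from 1.53 for PTPN2 to 2.77 for CEACAM1 in SUDHL6 and, ENTPD1 aside, from 1.88 for BTN3A2 to 84.8 for PTAFR in SUDHL16. JAK3 (ENSG00000105639, chr19:17824780-17848071), the kinase of the receptors that share the common gamma chain, read 19.3, 18.9 and 21.2 CPM in parental and 35.7, 34.5 and 31.9 CPM in resistant SUDHL6, and 6.41 and 7.22 CPM in parental and 169, 207 and 123 CPM in resistant SUDHL16. The step was 1.72-fold in SUDHL6 and 24.5-fold in SUDHL16, and the libraries of each group lay close together beside that step. PTPN2, a phosphatase that removes phosphate from JAK and STAT proteins, went from 24.6, 23.3 and 23.7 CPM to 36.4, 37.9 and 35.5 CPM in SUDHL6 and from 26.5 and 20.5 CPM to 38.4, 47.4 and 81.7 CPM in SUDHL16. Of 18 eligible genes of the interleukin, JAK and STAT list, JAK3 and PTPN2 were the 2 members. Without them edgeR called 0 of 23 raised and 4 lowered in SUDHL6 (median log2 change 0.06), and 10 of 25 raised and 1 lowered in SUDHL16 (median 0.73).

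RASA3 and RASAL3, which speed the hydrolysis of GTP by small GTPases of the RAS family, were both raised. RASA3 read 9.86, 7.74 and 8.14 CPM against 14.2, 15.5 and 12.6 CPM in SUDHL6, and 8.15 and 7.68 CPM against 34, 35.7 and 54.3 CPM in SUDHL16, and RASAL3 read 30.4, 29.7 and 34.3 CPM against 50.9, 48.5 and 53.2 CPM in SUDHL6, and 20.4 and 21.7 CPM against 86.2, 67.4 and 69.7 CPM in SUDHL16. In each gene the SUDHL6 groups were separate with ratios of 1.64 and 1.62, and the SUDHL16 ratios were 5.22 and 3.54. RASA3 was the only member among the 31 eligible genes of the MAPK and RAS list. Without it edgeR called 1 of 40 list genes raised and 3 lowered in SUDHL6, and 6 of 37 raised and 2 lowered in SUDHL16.

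PTAFR, the receptor for platelet-activating factor, read 51.4, 54.6 and 52.5 CPM in parental and 82.2, 84.6 and 82.2 CPM in resistant SUDHL6, and 0.539 and 0.464 CPM in parental and 35.1, 50.5 and 42 CPM in resistant SUDHL16. In SUDHL16 it was under 1 CPM in parental replicates 1 and 3, with 4.11 CPM in replicate 2. Keeping replicate 2 brought the log2 ratio in SUDHL16 from 6.41 to 4.64. GPR18, a G protein-coupled receptor of lymphocytes, read 4.13, 3.71 and 3.99 CPM against 9.56, 10.1 and 9.55 CPM in SUDHL6, and 0.719 and 1.46 CPM against 10.4, 17.2 and 34.1 CPM in SUDHL16, a ratio of 2.47 in SUDHL6 and 18.9 in SUDHL16. The log2 ratio in SUDHL16, 4.24, ran from 3.66 to 4.84 with 1 library left out. It lies inside UBAC2 on the opposite strand, which makes its counts uncertain. CEACAM1, an adhesion receptor with inhibitory motifs, read 7.08, 8.71 and 8.02 CPM against 22.2, 22.6 and 21.3 CPM in SUDHL6, and 1.14 and 2.19 CPM against 31.3, 37.4 and 64.7 CPM in SUDHL16. All resistant libraries were above 20 CPM and all parental ones under 10 CPM.

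ENTPD1 encodes CD39, which breaks down extracellular ATP, and read 12.4, 13.2 and 12.5 CPM against 19.99, 20.9 and 19.7 CPM in SUDHL6, and 0.180 and 0 CPM against 11.4, 23.7 and 25.4 CPM in SUDHL16. The parental SUDHL16 value rests on 3 counts in all, so the ratio of pooled counts was 225 with a counting interval (95%) of 76.8 to 1093. Parental replicate 2 read 5.32 CPM, and with that library kept the log2 ratio in SUDHL16 was 3.46 instead of 7.81. Without parental replicate 1 the used parental count was 0, and the log2 ratio was at least 6.66 against the floor of 3 counts per library. With 1 of the other used libraries left out it was 8.09 at its largest. ENTPD1 overlaps ENTPD1-AS1 on the opposite strand, which makes its counts uncertain. TNFSF9, the ligand of the T-cell costimulator 4-1BB, read 23.7, 22.8 and 22.2 CPM against 36.3, 36.3 and 37.2 CPM in SUDHL6, and 24 and 17.8 CPM against 44.7, 54.3 and 37.1 CPM in SUDHL16. It was the only raised member among the 26 eligible genes of the surface receptor and adhesion list, of which CD24 and ICOSLG were lowered members. Without the 3, edgeR called 3 of 42 raised and 11 lowered in SUDHL6, and 16 of 37 raised and 2 lowered in SUDHL16.

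SEMA4B, a transmembrane semaphorin, read 8.49, 6.82 and 7.85 CPM against 11.9, 12.5 and 12.8 CPM in SUDHL6, and 8.15 and 6.95 CPM against 52.1, 66.3 and 62 CPM in SUDHL16. SEMA6C, another semaphorin, had ratios of 1.80 and 3.15, and TSPAN13, a tetraspanin, had ratios of 2.43 and 2.15. WNT10A, a secreted WNT ligand, read 18.1, 17.2 and 19.6 CPM against 39.8, 40.9 and 40.4 CPM in SUDHL6, and 1.02 and 1.79 CPM against 4.53, 18.5 and 5.48 CPM in SUDHL16, and parental SUDHL16 replicate 2 read 5.57 CPM, within the range of the resistant libraries. Only resistant SUDHL16 replicate 2 stood clearly above all parental libraries of that line for WNT10A.

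IDH2 (ENSG00000182054, chr15:90083045-90102477), the NADP-dependent isocitrate dehydrogenase of mitochondria, read 33.8, 37.8 and 34.5 CPM in parental and 65.6, 59.4 and 65.3 CPM in resistant SUDHL6, and 0.899 and 1.72 CPM in parental and 105, 69.2 and 117 CPM in resistant SUDHL16. It rose by 1.79-fold in SUDHL6 and 73.9-fold in SUDHL16, and parental SUDHL16 replicate 2 read 5.32 CPM. The log2 ratio of IDH2 in SUDHL16 was 6.21 without that library and 5.19 with it. Of 24 eligible genes of the TCA cycle list it was the only member. Without it edgeR called 0 of 24 raised and 1 lowered in SUDHL6, with a median log2 change of −0.04, and 5 of 24 raised and 0 lowered in SUDHL16, with a median of 0.17. Of the other isocitrate dehydrogenases, IDH1, IDH3A and IDH3B did not meet the rule in both lines, with IDH1 at means of 60.3 and 74.8 CPM in parental and resistant SUDHL6 and 42.1 and 46.4 CPM in SUDHL16. IDH3A and IDH3B were near level in SUDHL6, at 56.2 and 54.4 CPM and at 77.3 and 77.4 CPM, and edgeR called both raised in SUDHL16, from 44 to 82.7 CPM (adjusted p 0.0252) and from 45.4 to 99.4 CPM (0.0107). Oxidative phosphorylation had 0 members among 73 eligible subunit genes. Of 76 tested in edgeR, 0 were called in SUDHL6, also at an unadjusted p under 0.05 or in DESeq2, and 1 was called raised in SUDHL16, with median log2 changes of 0.02 and 0.24.

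GRAMD1B (ENSG00000023171, chr11:123358428-123627774), a protein of the endoplasmic reticulum that takes up cholesterol from the plasma membrane, had the largest SUDHL6 ratio of the raised genes. It read 0.614, 1.18 and 0.611 CPM in parental and 14.9, 15.1 and 16 CPM in resistant SUDHL6, and 0 and 0 CPM in parental and 63.1, 65.4 and 57.5 CPM in resistant SUDHL16. Both parental SUDHL16 libraries were at 0, so the resistant libraries were at least 328-fold higher against a floor of 3 counts per library, and the SUDHL6 ratio was 19.1. In log2 that SUDHL6 ratio was 4.26, and 4.10 to 4.64 with 1 library left out. Parental SUDHL16 replicate 2 read 7.74 CPM, and with it kept the log2 ratio in SUDHL16 was 4.59. That library thus lay above parental replicates 1 and 3 and below all 3 resistant libraries.

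MGLL, the lipase that breaks down monoacylglycerols, read 8.31, 9.35 and 9.03 CPM against 26.1, 26.2 and 27.3 CPM in SUDHL6, and 0 and 1.72 CPM against 7.46, 9.30 and 13.3 CPM in SUDHL16. In SUDHL16 parental replicate 2 read 7.50 CPM, just above the lowest resistant library, and the log2 ratio was 3.54 without and 1.71 with it. Parental replicate 1 had 0 counts, so without parental replicate 3 the log2 ratio was at least 5.80 against the floor of 3 counts per library. With 1 of the used libraries left out it was 2.54 at its smallest. MGLL partly overlaps KBTBD12 and SEC61A1 on the opposite strand, which makes its counts uncertain. HSPB1, the small heat shock protein HSP27, read 6.82, 5.501 and 7.26 CPM against 20.3, 20.4 and 18.4 CPM in SUDHL6, and 1.98 and 3.11 CPM against 26.2, 17 and 19.6 CPM in SUDHL16. It was the only member among 27 eligible genes of the heat shock and protein folding list, and without it edgeR called 0 of 29 raised and 2 lowered in SUDHL6 and 1 raised and 2 lowered in SUDHL16. The list's median log2 change without HSPB1 was −0.13 in SUDHL6 and −0.23 in SUDHL16. FKBP4, a cochaperone of HSP90 that is not on that list, was a lowered member.

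DNMT3B, which sets DNA methylation de novo, read 11.3, 11.6 and 11.5 CPM against 17.8, 18.3 and 18.8 CPM in SUDHL6, and 3.30 and 3.58 CPM against 31.2, 30.3 and 27.3 CPM in SUDHL16, and had 0 CPM in parental SUDHL16 replicate 2. The groups were tight and separate in both lines, with ratios of 1.60 and 8.61. Among 42 eligible genes of the chromatin and DNA methylation list it was the only member, and without it edgeR called 0 of 47 raised and 3 lowered in SUDHL6 and 3 of 46 raised and 1 lowered in SUDHL16. SERPINB9, an inhibitor of granzyme B, read 109.9, 108 and 111 CPM against 183, 171 and 175 CPM in SUDHL6, and 14.3 and 22.7 CPM against 141, 248 and 188 CPM in SUDHL16. GLRX, a glutaredoxin that reduces mixed disulfides with glutathione, had ratios of 1.56 and 2.45. On the redox and NADPH list, TXNIP was raised and NCF4 lowered among 34 eligible genes, and without them edgeR called 4 of 40 raised and 3 lowered in SUDHL6 and 3 of 41 raised and 4 lowered in SUDHL16.

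Of the raised genes that act on actin and adhesion, RIPOR2, an inhibitor of RHOA, had nearly equal ratios of 1.56 and 1.57 in the lines. It read 179.6, 179 and 179 CPM against 276, 281 and 282 CPM in SUDHL6, and 76.8 and 88.4 CPM against 97.4, 119 and 173 CPM in SUDHL16. CTTN, the actin-binding protein cortactin, read 5.82, 5.501 and 5.01 CPM against 13.8, 14 and 12.8 CPM in SUDHL6, and 4.85 and 7.22 CPM against 15.6, 15.7 and 8.93 CPM in SUDHL16, and parental SUDHL16 replicate 2 read 10.6 CPM, above the lowest resistant library. The SUDHL16 separation of CTTN is thus lost once that library is kept.

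The 18 other raised genes are TRANK1, SCCPDH, CFAP251, NUCB2, ZNRF1, RCAN3, CYB5D1, ABHD14A, COL9A2, TMEM229B, IFI27L2, COMMD7, SMIM14, IQCG, PRDM10, SNX29, LIX1L and CAMP. Their ratios ran from 1.52 for SNX29 to 4.61 for SCCPDH in SUDHL6, with a median of 1.66, and from 1.51 for LIX1L to 81.5 for ZNRF1 in SUDHL16, with a median of 1.99. ZNRF1, a ubiquitin ligase, read 6.99, 7.65 and 7.92 CPM against 13.6, 11.4 and 14.4 CPM in SUDHL6, and 0.659 and 0.397 CPM against 64.9, 36.5 and 27.7 CPM in SUDHL16, and 3.63 CPM in parental SUDHL16 replicate 2. With that library kept its log2 ratio there was 4.78 instead of 6.35. SCCPDH read 2.02, 2.62 and 2.30 CPM against 8.86, 11.1 and 12.1 CPM in SUDHL6, and 17.2 and 15.2 CPM against 23.6, 30.5 and 37.7 CPM in SUDHL16, and was among the 9 raised genes with the larger ratio in SUDHL6. TRANK1 read 3.69, 4.47 and 3.42 CPM against 12, 13.4 and 12.6 CPM in SUDHL6, and 215 and 183 CPM against 330.1, 327 and 531 CPM in SUDHL16, which puts every resistant library above every parental one of its line, with the wider ratio again in SUDHL6. CAMP, the antimicrobial peptide cathelicidin, read 3.10, 4.03 and 3.30 CPM against 7.99, 7.79 and 8.26 CPM in SUDHL6, and 1.02 and 2.85 CPM against 18.4, 5.37 and 8.65 CPM in SUDHL16. For CAMP parental SUDHL16 replicate 2 read 6.29 CPM, above resistant replicate 2. SMIM14 read 209.5, 212 and 209 CPM against 333, 330.4 and 325 CPM in SUDHL6, and 34.2 and 38.9 CPM against 76.2, 48.5 and 54.6 CPM in SUDHL16, and there too replicate 2 of parental SUDHL16 was at 92.2 CPM, above all 3 resistant libraries, so that the log2 ratio of 0.71 in SUDHL16 was 0.12 with it kept.

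Among the lowered genes, HRK (ENSG00000135116, chr12:116856144-116881441) is a BH3-only protein that binds the survival proteins BCL2 and BCL-XL. It read 46.1, 43 and 42.2 CPM in parental and 17.3, 16.4 and 15.5 CPM in resistant SUDHL6, and 20.4 and 11.3 CPM in parental and 1.40, 1.89 and 3.63 CPM in resistant SUDHL16. The parental mean was 2.67-fold above the resistant mean in SUDHL6 and 6.87-fold in SUDHL16, and parental SUDHL16 replicate 2, at 14.3 CPM, lay with the other parental libraries. Of 16 eligible genes of the BCL2 family list, HRK was the only member. Without it edgeR called 1 of 19 raised and 3 lowered in SUDHL6 and 3 of 17 raised and 0 lowered in SUDHL16. These few, named after their values were seen, were MCL1 (raised) and BCL2A1, BCL2L11 and BBC3 (lowered) in SUDHL6, and BCL2L1, BCL2A1 and BBC3 (raised) in SUDHL16. BCL2A1 and BBC3 were thus called in opposite directions in the lines.

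BCL2 itself, the target of the drug, did not meet the rule. It read 365, 361 and 360.2 CPM in parental and 318, 319.8 and 319.97 CPM in resistant SUDHL6, a log2 change of −0.19 in edgeR (adjusted p = 2.6e-06), lower in 3 of 3 resistant libraries and short of the 1.5-fold minimum. In SUDHL16 it read 563 and 459 CPM in parental and 445, 484 and 383 CPM in resistant libraries, and the groups overlapped (log2 change −0.18 in edgeR, adjusted p = 0.699). With parental SUDHL16 replicate 2 kept, the log2 ratio of the means changed from −0.23 to 0.12.

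The letters TGATGNAA, a core of the ATF4 composite element, were in the promoter of HRK (chr12:116881392-116881691, minus strand), which is shown because HRK is the family member lowered in both lines, with the match in capitals.
HRK: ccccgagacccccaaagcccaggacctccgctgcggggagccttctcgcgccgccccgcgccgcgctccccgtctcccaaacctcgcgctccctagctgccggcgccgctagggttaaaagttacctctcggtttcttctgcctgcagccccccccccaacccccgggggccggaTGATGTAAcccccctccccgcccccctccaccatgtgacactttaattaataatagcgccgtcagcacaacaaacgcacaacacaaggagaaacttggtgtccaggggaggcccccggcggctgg
These letters were found in 2 of 22 lowered promoters (9.09%), those of HRK and ZNF486, in 2 of 41 raised promoters (4.88%), those of CAMP and PTPN2, and in 1.60% of the 7128.

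Other lowered genes of cell death and signalling were RASSF6, STK38L, TBKBP1, ACVR2B and TBC1D4. RASSF6, a RAS-association domain protein of apoptotic and Hippo signalling, read 13.3, 15.4 and 13.7 CPM against 1.64, 1.76 and 1.60 CPM in SUDHL6, and 138 and 87.9 CPM against 52.3, 49.3 and 80.3 CPM in SUDHL16, and had the widest SUDHL6 ratio of the lowered genes at 8.47. STK38L, a kinase of the NDR family, read 26, 26 and 26.7 CPM against 14.5, 14.4 and 13.4 CPM in SUDHL6, and 142 and 113 CPM against 33, 45.7 and 43.6 CPM in SUDHL16. TBC1D4, a GTPase-activating protein of RAB proteins in membrane traffic, read 133, 136 and 127 CPM against 72, 70.03 and 70.9 CPM in SUDHL6, and 35.5 and 25.8 CPM against 0, 0.149 and 0.498 CPM in SUDHL16. Its resistant SUDHL16 libraries held between 0 and 11 counts, and the parental mean was 142-fold higher there against 1.86-fold in SUDHL6. That SUDHL16 log2 ratio, −7.15, ran from −8.68 to −6.57 with 1 library left out. TBKBP1, an adaptor of the kinase TBK1, had parental to resistant ratios of 2.16 and 6.18, and ACVR2B, an activin receptor, had ratios of 1.70 and 1.62.

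The lowered genes JCHAIN, CD24, ICOSLG, LAPTM5 and NCF4 are described together for their known roles in leukocytes, a grouping made once the members were found. The B-cell receptor list and the B-cell markers held 0 members. JCHAIN (ENSG00000132465, chr4:70655541-70681817), the joining chain of polymeric IgM and IgA and a marker of plasma cells, read 465, 468 and 462 CPM in parental and 244, 247 and 247 CPM in resistant SUDHL6, and 658 and 452 CPM in parental and 0, 0 and 0.0906 CPM in resistant SUDHL16. Reads of JCHAIN thus all but vanished in resistant SUDHL16, with 2 counts in 3 libraries, and the ratio of pooled counts was 15818 with a counting interval (95%) of 4378 to 130622. The log2 ratio there was −14.2 in the main analysis. Without resistant replicate 3 the resistant libraries were at 0, and the log2 ratio was −11.6 or lower against the floor of 3 counts per library. In SUDHL6 the ratio was 1.89, and the libraries of each group lay close together. Of 7 eligible genes of the plasma cell list, JCHAIN was the only member. Without it edgeR called 0 of 14 raised and 4 lowered in SUDHL6 (median log2 change −0.30) and 5 of 13 raised and 1 lowered in SUDHL16 (median 1.43).

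CD24, a sialoglycoprotein of B-cell surfaces, read 338, 327 and 329 CPM against 170.1, 177 and 176 CPM in SUDHL6, and 207 and 202 CPM against 110.2, 114 and 108 CPM in SUDHL16. The ratios were nearly equal at 1.90 and 1.85, but parental SUDHL16 replicate 2 read 108 CPM, level with the resistant libraries. LAPTM5, a lysosomal membrane protein of lymphocytes, read 884, 866 and 867 CPM against 554, 548 and 537 CPM in SUDHL6, and 559 and 557 CPM against 303, 304 and 334 CPM in SUDHL16, and ICOSLG, the ligand of the T-cell costimulator ICOS, read 22.2, 22 and 22.6 CPM against 14.8, 14.2 and 12.7 CPM in SUDHL6, and 124 and 152 CPM against 103, 77.2 and 71.3 CPM in SUDHL16. Parental SUDHL16 replicate 2 was at 294 CPM for LAPTM5, below the resistant libraries, and at 136 CPM for ICOSLG, with the parental ones. NCF4, the p40phox subunit of the phagocyte NADPH oxidase, read 16.4, 15.4 and 17.8 CPM against 3.11, 2.93 and 2.84 CPM in SUDHL6, and 123 and 171 CPM against 75.1, 60.7 and 63.2 CPM in SUDHL16. Its parental to resistant ratio was 5.58 in SUDHL6 and 2.21 in SUDHL16, with groups far apart in the former.

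Cytoskeletal proteins gave 4 lowered genes. RDX (ENSG00000137710, chr11:109864295-110296712), the ERM protein radixin, which ties actin to the plasma membrane, read 19.8, 19 and 19 CPM in parental and 5.65, 6.30 and 5.61 CPM in resistant SUDHL6, and 106 and 90.8 CPM in parental and 17.3, 21.8 and 24.7 CPM in resistant SUDHL16. It was lowered 3.29-fold in SUDHL6 and 4.64-fold in SUDHL16, the widest of the lowered genes by the smaller of its ratios, and parental SUDHL16 replicate 2, at 52.8 CPM, was above every resistant library. MARCKS, which binds actin at the membrane and is phosphorylated by protein kinase C, read 76.5, 79.8 and 71.6 CPM against 48.2, 53.8 and 49.3 CPM in SUDHL6, and 33.1 and 50.1 CPM against 5.79, 3.23 and 9.79 CPM in SUDHL16. SEPTIN11, a filament-forming GTPase, had ratios of 1.57 and 2.61, and STARD9, a kinesin, had ratios of 1.53 and 2.51. RDX, MARCKS and SEPTIN11 were the 3 members among 40 eligible genes of the cytoskeleton list. Without them edgeR called 1 of 58 raised and 6 lowered in SUDHL6 and 4 of 54 raised and 3 lowered in SUDHL16, with median log2 changes of 0.05 and 0.01.

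Lipid, glycan and zinc handling gave another 4. ABCA1, which exports cholesterol from cells, read 39.7, 39.4 and 37.8 CPM against 10.7, 10.4 and 11.5 CPM in SUDHL6, and 71.1 and 75.6 CPM against 15.8, 24.1 and 48.8 CPM in SUDHL16. The SUDHL6 ratio of 3.58 came with tight groups, while in SUDHL16 (ratio 2.48) the resistant libraries were spread and parental replicate 2 read 35.8 CPM, below resistant replicate 3. On the cholesterol and fatty acid synthesis list ABCA1 was the only member among 31 eligible genes, and without it edgeR called 0 of 33 raised and 1 lowered in SUDHL6 and 5 of 32 raised and 1 lowered in SUDHL16. GALNT1, which starts O-linked glycans, had ratios of 2.07 and 2.61, and MAN1A1, a mannosidase that trims N-linked glycans, had ratios of 1.59 and 3.34. SLC39A10, a zinc importer, read 30.1, 27.7 and 28.1 CPM against 16, 15.5 and 15.7 CPM in SUDHL6, and 31.6 and 28.6 CPM against 1.60, 3.18 and 3.44 CPM in SUDHL16.

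The 8 other lowered genes are ZNF486, H1-10, RPRD1A, FKBP4, DEF8, TMEM255B, GPR137C and FAM241A. Their parental to resistant ratios ran from 1.55 for FKBP4 to 2.44 for ZNF486 in SUDHL6 and from 1.59 for RPRD1A to 17.0 for FAM241A in SUDHL16. ZNF486, a zinc finger protein, read 23.9, 24.9 and 26.1 CPM against 9.93, 10.8 and 9.94 CPM in SUDHL6, and 26.1 and 30.6 CPM against 4.81, 2.49 and 1.59 CPM in SUDHL16, and parental SUDHL16 replicate 2 read 126 CPM, above all other libraries, so that the log2 ratio of −3.26 in SUDHL16 was −4.36 with it kept. H1-10, a linker histone, read 22.7, 19 and 21.8 CPM against 10.3, 8.88 and 10.6 CPM in SUDHL6, and 166 and 158 CPM against 95.9, 64.2 and 100.4 CPM in SUDHL16. DEF8 had nearly equal ratios of 2.05 and 2.07 in the lines, and read 62.5, 62.3 and 68.9 CPM against 34.3, 29 and 31.2 CPM in SUDHL6, and 288 and 285 CPM against 159, 137 and 119 CPM in SUDHL16.

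Of the 31 lists, 18 had 0 members in either direction. Among these, the NF-kappaB and TNF target list had 12 of 40 genes called lowered and 0 raised in SUDHL6. In SUDHL16 it had 11 of 38 called raised and 2 lowered. The serine, one-carbon and ATF4 list had 1 of 34 raised and 1 lowered in SUDHL6 and 20 of 32 raised and 0 lowered in SUDHL16. B-cell receptor signalling had 1 of 35 raised and 3 lowered in SUDHL6 and 12 of 35 raised and 3 lowered in SUDHL16. For p53 targets the counts were 0 of 26 raised and 3 lowered in SUDHL6 and 3 of 27 raised and 2 lowered in SUDHL16. The MYC and MAX network had 0 of 16 genes called in SUDHL6, and 1 of 15 raised and 1 lowered in SUDHL16. DNA replication had 1 of 36 called lowered in SUDHL6 and 1 of 36 raised in SUDHL16, and mitosis 1 of 30 raised in SUDHL6 and 1 raised and 4 lowered of 30 in SUDHL16. The drug efflux transporters had 0 members among 6 eligible genes. Where a list is given with 0 edgeR calls in a direction, the count at an unadjusted p under 0.05, with the same fold, and the count in DESeq2 were also 0. The exceptions by the unadjusted p alone were 2 raised genes of the chromatin list in SUDHL6, and 1 lowered gene of the TCA list and 3 of oxidative phosphorylation in SUDHL16. For DNA replication 1 gene was lowered in SUDHL16 by the unadjusted p and 1 in DESeq2, with 0 in edgeR. Whether the lists differ between the lines was not tested.

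By symbol, the 282 eligible zinc finger (ZNF) genes held 1 member, ZNF486, and the 144 solute carriers (SLC) held 1, SLC39A10. Of 5 TNF and TNF receptor family genes 1 was a member, TNFSF9, and of 14 HLA genes and 31 TRIM genes 0 were. Of 9 histone genes, H1-10 was the member. Of all 8529 eligible genes 75 were members, and nothing is read from these small family counts.

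The size of the change was compared between the lines by the interaction of line and resistance in edgeR, fitted on the 11 libraries and adjusted over 20959 genes, of which 2930 (14%) had an adjusted p under 0.05. Of the 75 genes 33 did, 22 of the 48 raised and 11 of the 27 lowered. These are the contrasts that chose the genes, so the counts are a description. Kit and instrument differ with the line, so a difference in size between the lines may come from kit or instrument. Of the 22 raised genes, 21 had the larger change in SUDHL16, and the exception was SCCPDH. Of the 11 lowered genes, 9 had the larger change in SUDHL16, and the exceptions were NCF4 and RASSF6. Across 5 other fits, 26 of the 33 had an adjusted p under 0.05 in every one, among them IDH2, JAK3, TXNIP, PTAFR, JCHAIN and MARCKS. The 7 that lost it in at least 1 fit were GRAMD1B, ENTPD1, CFAP251, TREX1, HSPB1, STK38L and MAN1A1. With parental SUDHL16 replicate 2 kept in edgeR the adjusted p was 0.834 for GRAMD1B, 0.175 for ENTPD1, 0.327 for CFAP251, 0.224 for TREX1, 0.330 for STK38L and 0.0726 for MAN1A1. In limma TREX1 (0.395) and HSPB1 (0.104) lost it, HSPB1 in that fit only. The genes whose ratios were most alike in the lines were RIPOR2, PRDM10 and IFI27L2 among those raised and DEF8, CD24 and ICOSLG among those lowered. PRDM10, a transcription factor, had ratios of 1.59 and 1.56.

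Parental SUDHL16 replicate 2 played no part in the choice of genes, and gives a measurement of each of them outside it. The parental side means below the lowest resistant library for a raised gene and above the highest for a lowered gene. It lay there for 42 of the 48 raised genes (87.5%) and 18 of the 27 lowered genes (66.7%). Among all genes that met the rule in SUDHL16 alone the shares were 93.0% and 39.4%, and among all 8529 genes this library was below the lowest resistant one for 73.8% and above the highest for 10.5%. The raised share is thus to be read against a library that was low for most genes. With CPM over autosomal protein-coding counts only, the shares were 38 of 48 (79.2%) and 26 of 27 (96.3%) for the members, 79.9% and 70.8% for the genes of SUDHL16 alone, and 45.3% and 27.5% for all 8529. The 6 raised genes off the parental side by library totals were MGLL, CAMP, CTTN, WNT10A, SMIM14 and PTPN2. The 9 lowered ones were ABCA1, GALNT1, DEF8, RASSF6, CD24, LAPTM5, RPRD1A, SEPTIN11 and FKBP4. With replicate 2 kept as a parental library, the rule gave 50 raised and 20 lowered genes, with 42 and 18 of the members among them.

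Position on the chromosomes was not used in the choice. The raised genes lie on 19 chromosomes and the lowered genes on 17, with 7 raised genes on chromosome 1 and 4 lowered genes on chromosome 4 as the largest counts. Of the 8529 eligible genes, 880 lie on chromosome 1 and 300 on chromosome 4. Some members lie within 1 Mb of another. IDH2 and SEMA4B on chromosome 15, DNMT3B and COMMD7 on chromosome 20, TREX1 and CAMP on chromosome 3, TXNIP and LIX1L on chromosome 1, and PSMB8 and PSMB9 on chromosome 6 are raised pairs. GALNT1 and RPRD1A on chromosome 18 are a lowered pair, and RASA3 (raised) and TMEM255B (lowered) on chromosome 13 go in opposite directions.

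The other genes within 1 Mb moved with some of these members. Around IDH2 all 17 of the other eligible genes were higher in resistant SUDHL16, with a median log2 ratio of 1.24 against 6.21 for IDH2 itself, and in SUDHL6 the median was 0.01. Around DNMT3B all 15 were higher in SUDHL16, with a median of 0.88 against 3.11 for DNMT3B. Around COMMD7 all 16 were, with a median of 0.95 close to the 0.99 of COMMD7. Around CYB5D1 44 of 46 were, with a median of 0.84 close to the 0.88 of CYB5D1. Around HSPB1 all 8 were higher in SUDHL16, with a median of 0.63 against 3.04 for HSPB1. In SUDHL6 all 11 genes around PTPN2 were higher, with a median of 0.68 that is close to the 0.62 of PTPN2. For GALNT1 and RPRD1A 0 of the genes nearby were higher in SUDHL6. The median was −0.86 around each, against −1.05 for GALNT1 and −1.08 for RPRD1A. Around STK38L 0 of 8 were higher in SUDHL6, with a median of −0.59 against −0.90 for STK38L. Around HRK 0 of 5 were higher in SUDHL16, with a median of −1.25 against −2.78 for HRK. For STARD9 0 of 23 were higher in SUDHL16, with a median of −0.66 against −1.33 for STARD9. GPR18 was raised in SUDHL6 while 0 of 4 genes around it were, with a median of −0.59. Copy number was not measured, and its part was not tested.

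Of 41 raised genes with at least 5 such neighbours, the neighbour median was past 0.3 in the same direction for 1 in SUDHL6 (2.44%) and 8 in SUDHL16 (19.5%), and of 20 lowered genes for 4 in each line (20%). The same shares over all 7090 genes with as many neighbours were 0.451% and 11.3% upwards and 1.52% and 9.49% downwards. The share of members was above that of all genes in each line and direction, and rests on 1 to 8 members each time. For most members the neighbour median was not past 0.3 in the direction of the member.

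**Figure D4:**
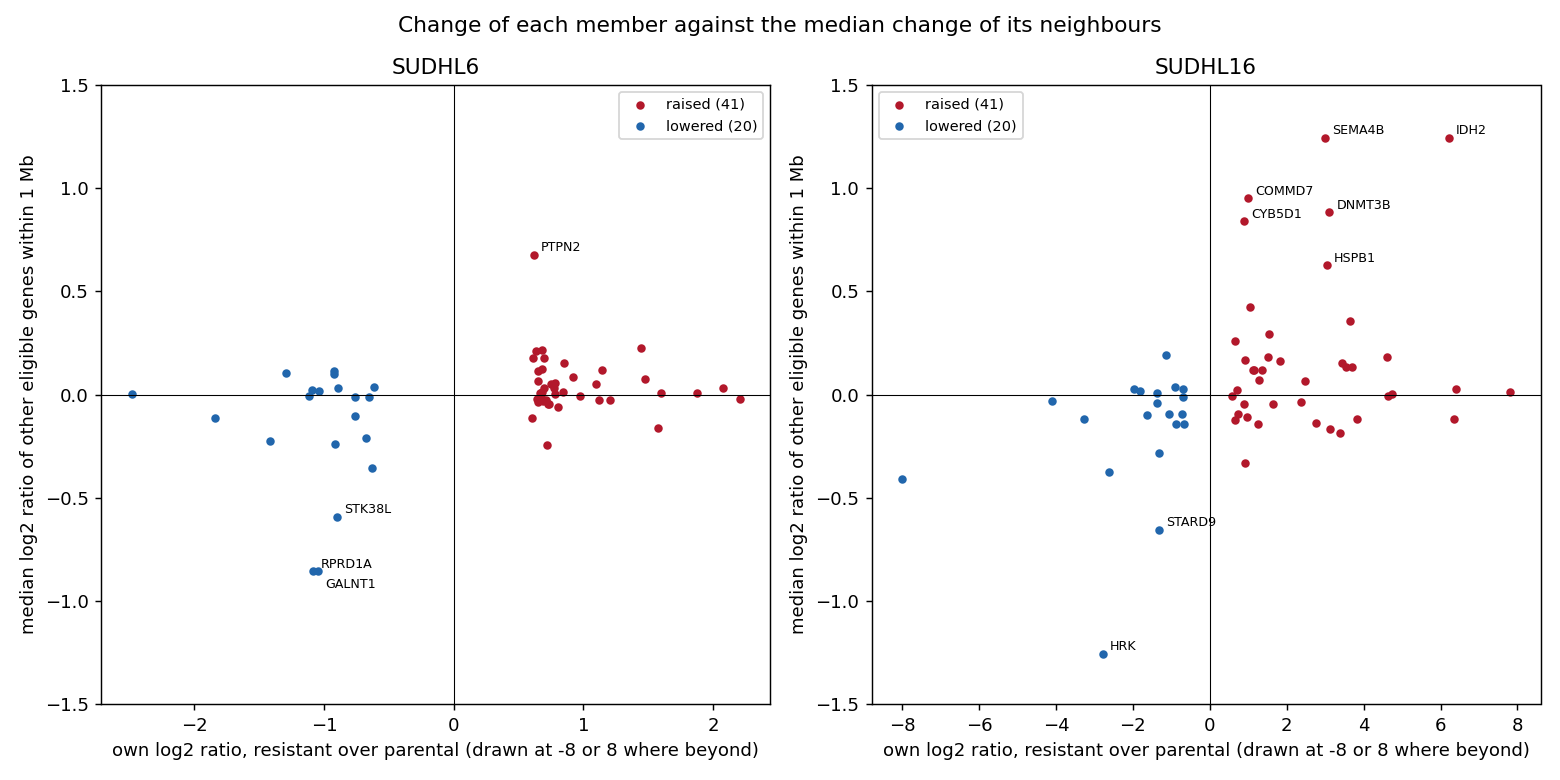
For the 41 raised and 20 lowered genes with at least 5 eligible neighbours, the horizontal axis gives the gene's own log2 ratio of resistant to parental mean CPM and the vertical axis the median log2 ratio of its neighbours within 1 Mb, in SUDHL6 on the left and SUDHL16 on the right. Most neighbour medians lie near 0, and IDH2 and SEMA4B (1.24) and DNMT3B (0.88) are among those furthest above it in SUDHL16.

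The threshold ran through closely spaced genes. Just inside the ratio of 1.5 by their smaller ratio were LIX1L (1.51), SNX29 (1.52) and TXNIP (1.53) among raised genes, and just outside were UBE2L6 (1.49), ESPNL (1.49) and FAM53B (1.49). Just inside among lowered genes were MARCKS (1.51), STARD9 (1.53) and FKBP4 (1.55), and just outside were MNS1 (1.498), NFKBID (1.49) and EIF2AK3 (1.48). The condition on overlap alone kept out 3 genes in each direction. At the minimum of 5 CPM, with genes named after their values were seen, IQCG (5.09 CPM in SUDHL6) was inside and RGS9 (4.68 CPM in SUDHL16) outside among raised genes. Among lowered genes TMEM255B (6.05 CPM in SUDHL6) was inside and RNPEP (4.78 CPM in SUDHL6) outside. Of the 75 members 46 overlap another annotated gene, 35 of them one on the opposite strand, and their counts are uncertain to that extent, since the strand setting of the counting is not stated.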

How the data were processed

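RNA from parental and venetoclax-resistant SUDHL6 and SUDHL16 cells was sequenced in 12 libraries. The authors used Trim Galore for trimming, HISAT2 for alignment to GRCh38 and StringTie for assembly, and deposited a whole-number read count for each gene. The annotation and strand setting of the counting are not stated. Of 60675 Ensembl identifiers, 56558 were found in GENCODE 44. CPM used library totals without scaling. Folds against groups at 0 used a floor of 3 counts per library, and floors and intervals cover counting error only. No pair of libraries was identical. Between libraries of a group the dispersion over counting error (chi-square over degrees of freedom) was 3.57 to 4.52 in SUDHL6, 22.1 to 124 in SUDHL16, and up to 367 in pairs with parental SUDHL16 replicate 2.

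Each line was fitted in edgeR 4.0.16 (R 4.3.3) with its filter on low counts, TMM scaling and the two-sided quasi-likelihood test, and p-values were adjusted by Benjamini-Hochberg over all genes tested. The members and gene lists were chosen with earlier results of these data known, and the lists were written from general knowledge. Members were grouped by role once known. Other steps ran in Python 3.11.15 (matplotlib 3.10.9, scipy 1.17.1, numpy 2.4.6, pandas 2.3.3).

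The rule for named genes took the 12 members of each direction with the widest smaller log2 ratio, members of a list, the 3 genes on either side of the ratio threshold, the 5 with the most unequal, the 3 with the most equal ratios and the 3 with the highest CPM in each direction, members within 1 Mb of another, IDH2 and BCL2. Other members are named to account for all 75.

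The alternatives were keeping parental SUDHL16 replicate 2, TMM, upper-quartile and protein-coding totals, other minimums and ratios, no condition on overlap, no filter, DESeq2 1.42.0, and each library left out in turn. Keeping that replicate with protein-coding totals, DESeq2 on 11 libraries and limma 3.58.1 (voom with sample weights) were chosen after seeing the data.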

Additional observations from a re-analysis of the deposited data

Results flagged for a closer look

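For 33 of the 75 genes the change differed in size between the lines in the edgeR interaction, at an adjusted p under 0.05 over all 20959 genes, of which 2930 (14%) passed. The same contrasts chose the genes, so the count describes them and does not test them. In these differences the line cannot be told apart from kit and instrument. Each value below is the log2 change in SUDHL16 minus that in SUDHL6, as fitted. Among raised genes the difference was 9.28 for GRAMD1B, 7.01 for ENTPD1, 5.74 for PTAFR, 5.52 for ZNRF1, 5.38 for IDH2, 4.03 for TXNIP and 3.84 for JAK3. It was 3.29 for CEACAM1, 2.96 for GPR18, 2.95 for COL9A2, 2.70 for SERPINB9, 2.51 for CFAP251, 2.44 for TMEM229B, 2.43 for DNMT3B and 2.32 for SEMA4B. It was smaller for TREX1 (1.82), OAS2 (1.76), RASA3 (1.68), HSPB1 (1.45), RASAL3 (1.14) and SNX29 (0.95). SCCPDH, at −1.27, was the raised gene with the larger change in SUDHL6.

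Among lowered genes a negative difference means a larger fall in SUDHL16. The difference was −12.81 for JCHAIN, −6.04 for TBC1D4, −3.28 for FAM241A, −2.55 for SLC39A10, −2.12 for MARCKS, −2.00 for ZNF486, −1.52 for TBKBP1, −1.06 for MAN1A1 and −0.74 for STK38L. The fall was larger in SUDHL6 for RASSF6, at 2.19, and NCF4, at 1.34. The fitted values of GRAMD1B, ENTPD1 and JCHAIN depend on the prior count, since a group has 3 counts or fewer.

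In other fits 7 of the 33 lost the adjusted p under 0.05, among them the raised genes with the largest differences. With parental SUDHL16 replicate 2 kept it was 0.834 for GRAMD1B in edgeR and 0.964 in DESeq2, and 0.175 and 0.377 for ENTPD1. CFAP251 (0.327 and 0.563), TREX1 (0.224 and 0.191) and STK38L (0.330 and 0.150) lost it in both of these fits too. TREX1 also lost it in limma (0.395), which HSPB1 did in that fit alone (0.104), and MAN1A1 lost it in edgeR alone (0.0726). The cause was not tested.

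Outside the libraries that chose the genes, parental SUDHL16 replicate 2 held reads of a pair of genes that were at 0 or nearly so in parental replicates 1 and 3. GRAMD1B was at 7.74 CPM and ENTPD1 at 5.32 CPM in it.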

How the results depend on the processing

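No alternative reversed the direction of a count or of a named gene past its threshold. The counts of 48 raised and 27 lowered genes moved most with the thresholds. They were 95 and 57 with a minimum of 1 CPM, 145 and 113 with a lower minimum ratio (5/4), and 13 and 8 with a ratio of 2. Raised genes were 30 with a minimum of 10 CPM, and 31 with an edgeR call in both lines. TMM, upper-quartile and protein-coding totals, and DESeq2 calls in both lines, gave 39 to 53 raised and 21 to 33 lowered genes. Parental SUDHL16 replicate 2 kept as parental gave 50 raised and 20 lowered, and with protein-coding totals 41 and 31, of which 37 and 25 were members. With 1 library left out the counts ran from 46 to 55 raised and 26 to 32 lowered, and 33 raised and 18 lowered members were kept in every case. The 1636 edgeR calls in SUDHL16 were 2575 without a filter, 2461 in DESeq2, 833 with replicate 2 kept, and 701 to 1670 with 1 library left out. The lowest were 701 and 715, without parental replicate 1 or 3, where the lone parental library left is assumed to vary like the resistant ones. The 1493 calls in SUDHL6 were 1369 to 1462 with 1 library left out. The 33 genes with unequal change were 27 to 34 in other fits.

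For 64 named genes the log2 ratio in SUDHL16 with replicate 2 kept moved by less than the spread between libraries for 40 and by more for 24, and with TMM for 63 and 1. Limits are the 2 parental SUDHL16 libraries, 1 derivative of each line, and a depth at which few counts set the widest ratios. The causes of these moves were not tested.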
